A study of Homo sapiens with 5 samples.

Results

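Solute carriers are the membrane proteins that move amino acids, sugars, nucleosides, metals, ions and vitamins across the plasma membrane and the membranes of organelles. The genes described here are the rows of the authors' deposited table whose symbol has the form SLC, family number, letter and member number, apart from the SLC25 family of mitochondrial carriers and SLC11A2. There were 88 such genes among 6309 genes in all. Of these, 84 belong to 34 carrier families, and 4 are only named after a carrier (SLC9A3R1, SLC7A6OS, SLC2A4RG and SLC4A1AP). The 84 are called carriers here, although SLC3A2 is an accessory chain and SLC27A2 an acyl-CoA synthetase. SLC8B1, the sodium-calcium exchanger NCLX, and SLC30A9 meet the rule although both have been placed in mitochondria.

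HL-60 cells, a human promyelocytic leukaemia line labelled wild type (WT), received decitabine (100 nM, added at 0, 24 and again at 48 hours) or DMSO as vehicle, and lysates were made at 72 hours. Decitabine is a deoxycytidine analogue that depletes DNA methyltransferase activity. The labels list total RNA libraries, 2 of them from decitabine-treated cells and 2 with DMSO, and 1 library in which ribosome footprints were pooled, and they describe the wells as duplicates without saying whether the starting cultures were separate. Translation efficiency compares a gene's ribosome footprints with its total mRNA. All 7 promyelocyte markers looked for were in the table (MPO, ELANE, PRTN3, AZU1, CTSG, CD33 and LYZ), and none of 13 erythroid, lymphoid and epithelial markers was. That check concerns presence only, since the table gives no level of any gene.

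Each gene had 1 value, the coefficient of the drug term in the authors' model, and no value per library, so the values of single samples were not analysed here and the depth is unknown. The coefficient was taken as a natural log because its column is named as R names the terms of a regression, where natural logs are the usual scale, and values above 0 were taken to mean more efficient translation in decitabine-treated cells. The log base is not stated; were it log2, every fold below would be nearer to 1. Each ± is a standard error implied by the coefficient and its p-value, each interval is a 95% interval from it, and each adjusted p comes from the authors' deposited table, where it covers all 6309 genes. These errors cover the spread that entered the authors' model, which may be technical.

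Solute carriers matter to dividing blood cells because such cells import amino acids, glucose and nucleosides faster than resting cells and export lactate. Many plasma membrane amino acid carriers work as exchangers, and several are joined to the glycoprotein CD98, which brings them to the cell surface. Carriers inside the cell supply the Golgi with sugars for glycosylation and let lysosomes return amino acids to the cytosol. Equilibrative nucleoside carriers also bring decitabine itself into cells.

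No solute carrier differed in translation efficiency between decitabine-treated and DMSO-treated cells past an adjusted p of 0.05, in a table where 0.808% of all genes did. The coefficients spread from -1.85 for SLC16A1 to 1.08 for SLC38A7, with a median of 0.11, against a median of 0.09 for all genes in the authors' deposited table. Of the 88 genes 56 had a coefficient above 0, which is 63.6%, compared with 65% of all genes. At an unadjusted p below 0.05 there were 10 solute carriers, or 11.4%, beside 10.3% of all genes. Among these, 8 had a positive coefficient, a class that held 8.35% of all genes, and 2 had a negative one, a class that held 1.95% of all genes. The lowest adjusted p-values in the authors' deposited table were 0.191 for SLC4A7 and 0.193 for SLC16A1.

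Because the median of all genes lay above 0, the members were also set against that median. After subtraction of it 5 solute carriers had an unadjusted p below 0.05, which is 5.68%, beside 7.94% of all genes. Of these, SLC38A7 and SLC4A7 lay above the median, where 3.69% of all genes passed, and SLC16A1, SLC2A5 and SLC39A8 lay below it, where 4.25% did. SLC39A8 was not among the 10 before subtraction. None passed an adjusted p of 0.05 on this scale, where 0.586% of all genes did; the lowest adjusted p was 0.229, for SLC16A1.

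The precision of these genes limited what could be called. The implied standard error had a median of 0.28 for solute carriers and of 0.25 for all genes. A call needed a coefficient of about 3.55 standard errors, the smallest among the 51 called genes. At that size the change needed for a call ranged from 1.39-fold for SLC43A3 to 10.8-fold for SLC16A1, with a median of 2.66-fold. A 2-fold change could have been called for 19 of the 88 genes, and the 95% interval lay within a halving and a doubling for 37 of them. These values depend on the log base: with base 2 the median would be 1.97-fold and the counts 46 and 66. Of the members 12 lay past 0.5 in either direction, which is 13.6%, beside 10.5% of all genes. These large coefficients were mostly those of imprecise genes, since 10 of the 12 were among the 44 members with the larger standard errors.

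**Figure D1:**
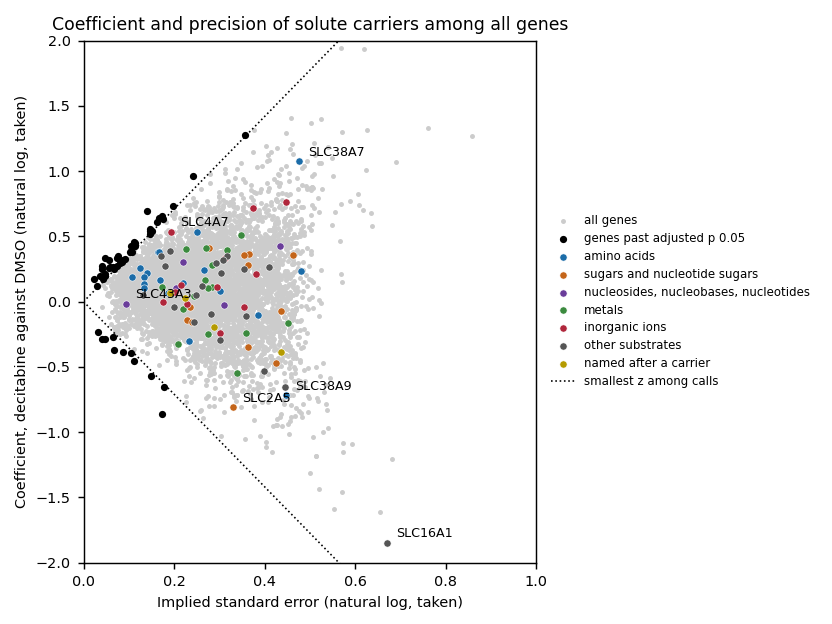
Coefficient (natural log, taken) against implied standard error for all genes (grey), genes past an adjusted p of 0.05 (black) and the 88 solute carrier genes (coloured by substrate); 4 genes lie outside the plotted range. Dotted lines mark the smallest z among called genes, 3.55, and every coloured point lies between them, with SLC16A1 at the lower right.

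The amino acid carriers had the highest median of the substrate classes, 0.19 over 19 genes in the authors' deposited table, compared with 0.09 for all genes. Of the 19, 16 had a coefficient above 0 and 14 lay above the median of all genes. None passed an adjusted p of 0.05. An unadjusted p below 0.05 was reached by 5 of them, or 26.3%, all with positive coefficients, beside 8.35% of all genes in that direction. After subtraction of the median of all genes it was reached by 1 of them, SLC38A7, or 5.26%, beside 7.94% of all genes. The class was also measured more precisely than the rest, with a median standard error of 0.19.

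Within this class the glutamine and neutral amino acid importers stood close together. SLC38A1 (SNAT1), a sodium-coupled glutamine importer, had, by the authors' deposited table, a coefficient of 0.38 ± 0.16 (adjusted p = 0.367). SLC38A2 (SNAT2), known for its induction by amino acid shortage, had, by the authors' deposited table, 0.26 ± 0.13 (adjusted p = 0.443). SLC1A5 (ASCT2), the glutamine exchanger of many tumour cells, had, by the authors' deposited table, 0.19 ± 0.11 (adjusted p = 0.564). On a natural log scale these values correspond to 1.46, 1.30 and 1.21 times the DMSO level. SLC1A4 (ASCT1), an exchanger of alanine, serine and cysteine, had 0.11 ± 0.13 in the authors' deposited table, and SLC38A5 had 0.07 ± 0.19. The 7 carriers grouped here under neutral amino acids had coefficients above 0, as did 65% of all genes. The highest was that of SLC38A1. Of the 7, 6 lay above the median of all genes. After subtraction of that median 0 of them had an unadjusted p below 0.05, beside 7.94% of all genes. SLC36A4, which also carries neutral amino acids and was grouped with the lysosomal carriers, had -0.10 ± 0.38 in the authors' deposited table. SLC38A1 lies on chromosome 12 from 46183063 to 46269043 and SLC38A2 beside it from 46358188 to 46372773 (whole-gene spans, GRCh38.p14).

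The CD98 complex was measured through its heavy chain and 3 light chains. SLC3A2, the heavy chain, had, by the authors' deposited table, a coefficient of 0.19 ± 0.13 (adjusted p = 0.652). SLC7A5 (LAT1), the light chain that exchanges leucine and other large neutral amino acids, had, by the authors' deposited table, 0.38 ± 0.17 (adjusted p = 0.383), 1.46 times the DMSO level on a natural log scale. Its 95% interval, 0.05 to 0.70, contained the heavy chain's value. SLC7A11 (xCT), the light chain that imports cystine for glutathione synthesis, had 0.24 ± 0.27 there, and SLC7A6 had 0.14 ± 0.22. All 4 chains lay above the median of all genes, with overlapping intervals. The cationic carriers SLC7A1 and SLC7A2, which work without CD98, had 0.14 ± 0.13 and 0.24 ± 0.48 in the authors' deposited table.

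Amino acid carriers of lysosomes spread over the widest range of the class. They were also measured less precisely, with a median standard error of 0.38, against 0.14 for the neutral amino acid carriers. Whether their spread exceeds that imprecision was not tested. SLC38A7 (SNAT7), which exports glutamine from lysosomes, had the highest coefficient of all members, which by the authors' deposited table was 1.08 ± 0.48 (adjusted p = 0.388). SLC15A4, which exports histidine and small peptides from endolysosomes, had, by the authors' deposited table, 0.53 ± 0.25 (adjusted p = 0.422). The lowest value of the class was that of SLC38A9, the lysosomal arginine sensor of the mTORC1 pathway, which by the authors' deposited table was -0.72 ± 0.45 (adjusted p = 0.597). SLC36A1, a proton-coupled exporter, had 0.08 ± 0.30. The interval of SLC38A7 ran from 0.14 to 2.01 and that of SLC38A9 from -1.60 to 0.16, so they overlapped. These genes are the highest and lowest of the class, and the difference between them was not tested. Outside lysosomes SLC6A6, the taurine importer, had, by the authors' deposited table, -0.30 ± 0.23 (adjusted p = 0.704).

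**Figure D2:**
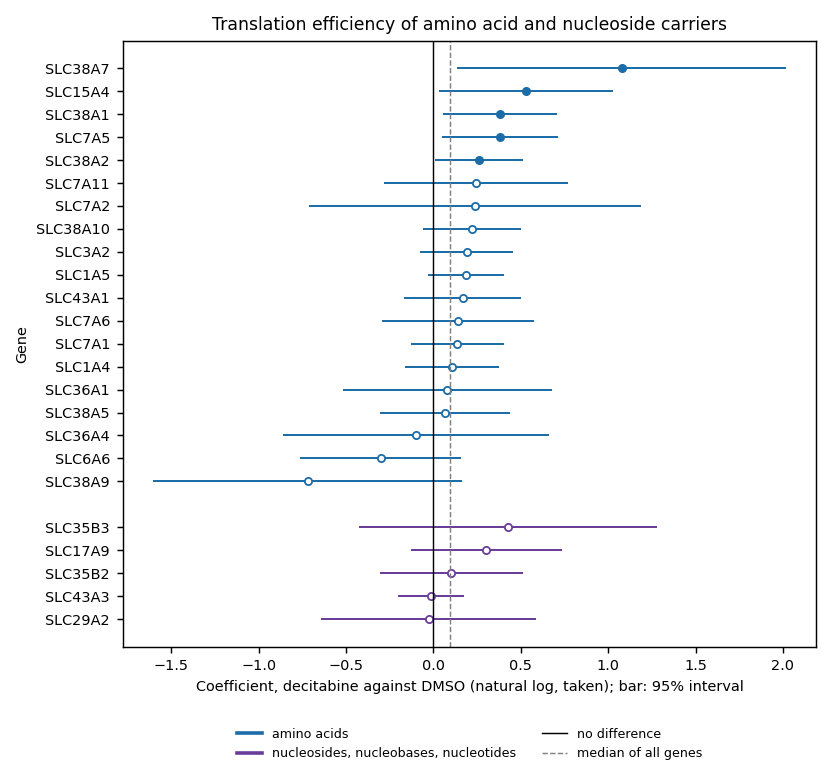
Coefficients (natural log, taken) of 19 amino acid carriers and 5 carriers of nucleosides, nucleobases and nucleotides, with 95% intervals from the implied standard errors; filled points have an unadjusted p below 0.05. Of the amino acid carriers 16 lie to the right of 0 and 5 are filled, whereas no nucleoside carrier is filled.

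Nucleoside carriers are of interest because they are a route of entry for decitabine. SLC29A2 (ENT2), the equilibrative carrier measured here, had, by the authors' deposited table, a coefficient of -0.03 ± 0.31 (adjusted p = 0.989). Its 95% interval ran from -0.64 to 0.58, which leaves room for a sizeable difference in either direction. SLC29A1, SLC29A3 and SLC28A3 were looked for and were not among the 6309 genes, so no value can be given for them. SLC43A3, a facilitator of purine nucleobases, was the most precisely measured member, with -0.02 ± 0.09 (adjusted p = 0.974) by the authors' deposited table, and its interval ran from 0.820 to 1.18 times the DMSO level. Nucleotide carriers of vesicles and the Golgi had positive coefficients. SLC17A9, the vesicular ATP carrier, had 0.30 ± 0.22, and the sulphate donor carriers SLC35B2 and SLC35B3 had 0.10 ± 0.21 and 0.43 ± 0.43 in the authors' deposited table. The median of the 5 genes was 0.10, and none passed.

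Sugar carriers had the lowest median of the carrier classes, -0.06 over 12 genes in the authors' deposited table, with 5 above 0 and 7 below. SLC2A5 (GLUT5), a fructose carrier, had, by the authors' deposited table, -0.81 ± 0.33 (adjusted p = 0.302), which is 0.444 times the DMSO level on a natural log scale. The glucose carriers SLC2A1 (GLUT1) and SLC2A3 (GLUT3) had -0.14 ± 0.23 and 0.28 ± 0.36 in the authors' deposited table. Their intervals overlapped, and that of SLC2A1 ran from -0.59 to 0.31. Carriers of nucleotide sugars, which feed glycosylation in the endoplasmic reticulum and Golgi, had a median of -0.11 over 6 genes. They ran from -0.47 ± 0.42 for SLC35D1, the carrier of UDP-glucuronic acid, to 0.41 ± 0.28 for SLC35C2 (adjusted p = 0.766 and 0.643 in that order, in the authors' deposited table). SLC50A1 had 0.36 ± 0.36 there. The class was also the least precise, with a median standard error of 0.36.

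The metal carriers had a median of 0.11 over 16 genes, close to that of all genes. None reached an unadjusted p below 0.05 before centring, beside 10.3% of all genes. After subtraction of the median of all genes 1 of them did, SLC39A8, or 6.25%, beside 7.94% of all genes. The ZIP proteins (SLC39), which bring zinc into the cytosol, had a median of 0.11 over 9 genes, and the ZnT proteins (SLC30), which carry it out, had 0.28 over 5. These ranges overlapped: the ZIP genes ran from -0.33 to 0.51 and the ZnT genes from -0.06 to 0.41 in the authors' deposited table. SLC39A4 (ZIP4) had, by the authors' deposited table, 0.51 ± 0.35, and SLC39A10 had 0.17 ± 0.27. SLC39A11 had 0.40 ± 0.23, and its adjusted p in the authors' deposited table was 0.55. SLC39A8 (ZIP8), which imports zinc and manganese, had, by the authors' deposited table, -0.33 ± 0.21 (adjusted p = 0.611). SLC30A1, the zinc exporter of the plasma membrane, and SLC30A5, a zinc carrier of the early secretory pathway, had 0.40 ± 0.32 and 0.41 ± 0.27 in the authors' deposited table. The copper importer SLC31A1 had -0.24 ± 0.36. SLC41A3, of a family of magnesium carriers, had the lowest value of the class, which by the authors' deposited table was -0.55 ± 0.34 (adjusted p = 0.597).

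Among carriers of inorganic ions SLC4A7 (NBCn1), which imports bicarbonate with sodium, had the smallest p-value of all members. Its coefficient was 0.54 ± 0.19 (unadjusted p = 0.00568, adjusted p = 0.191) in the authors' deposited table, or 1.71 times the DMSO level on a natural log scale, with an interval of 0.16 to 0.91. It ranked 186th of 6309 genes by p-value and lies on chromosome 3 from 27372723 to 27484384 (GRCh38.p14). After subtraction of the median of all genes its adjusted p was 0.509. SLC4A2 (AE2), the chloride-bicarbonate exchanger of the same family, had 0.07 ± 0.20. SLC12A2 (NKCC1), a cotransporter of sodium, potassium and chloride that raises cell volume, had, by the authors' deposited table, 0.72 ± 0.37 (adjusted p = 0.498). SLC12A9, of the same family, had 0.34 ± 0.31. The phosphate importer SLC20A1 had -0.00 ± 0.18, and the anion exchanger SLC26A6 had the lowest value, -0.24 ± 0.30. Over the 12 ion carriers the median was 0.12, with 8 above 0.

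**Figure D3:**
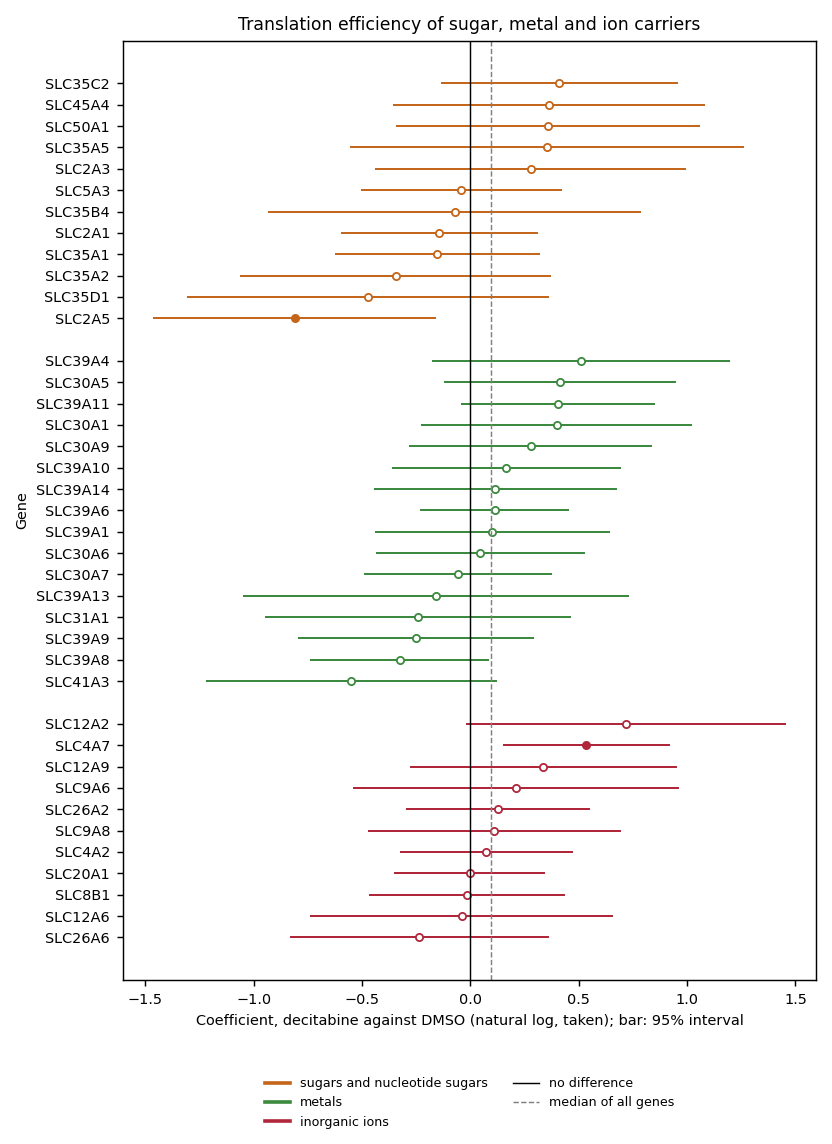
Coefficients (natural log, taken) of 12 carriers of sugars and nucleotide sugars, 16 of metals and 11 of the 12 of inorganic ions, with 95% intervals from the implied standard errors; filled points have an unadjusted p below 0.05. Only SLC2A5, at -0.81, and SLC4A7, at 0.54, are filled.

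The carriers of other substrates held the gene with the lowest coefficient of the whole table. SLC16A1 (MCT1), which carries lactate and pyruvate, had -1.85 ± 0.67 (unadjusted p = 0.0058, adjusted p = 0.193) in the authors' deposited table, 0.157 times the DMSO level on a natural log scale. It ranked 1st from the bottom among 6309 coefficients. It was also among the least precise genes, since only 8 genes had a larger implied standard error, and its interval ran from 0.0423 to 0.585 times the DMSO level. SLC16A1 lies on chromosome 1 from 112911847 to 112956196 (GRCh38.p14). SLC16A3 (MCT4), the lactate exporter of glycolytic cells, had 0.05 ± 0.13 in the authors' deposited table, with an interval of -0.21 to 0.31 that did not overlap that of SLC16A1. SLC16A7 (MCT2) had -0.16 ± 0.24, with an interval of -0.64 to 0.32 that did overlap that of SLC16A1. The contrast of SLC16A1 with SLC16A3 was seen in the values and was not tested. BSG and EMB, the partner chains of these carriers, had 0.01 ± 0.08 and -0.02 ± 0.14.

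Vitamin and lipid carriers gave further values on either side of 0. SLC19A1, the reduced folate carrier that also imports methotrexate, had, by the authors' deposited table, 0.27 ± 0.18 (adjusted p = 0.639). The other 4 vitamin carriers lay between -0.11 (thiamine carrier SLC19A2) and 0.05 (ascorbate importer SLC23A2). SLC44A1, a choline carrier, and SLC27A2, an acyl-CoA synthetase of very long chain fatty acids, had, by the authors' deposited table, 0.35 ± 0.17 (adjusted p = 0.458) and 0.39 ± 0.19 (adjusted p = 0.454). SLC27A4, a relative of SLC27A2, had, by the authors' deposited table, -0.65 ± 0.44 (adjusted p = 0.645). The median of the 20 genes in the class was 0.08.

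**Figure D4:**
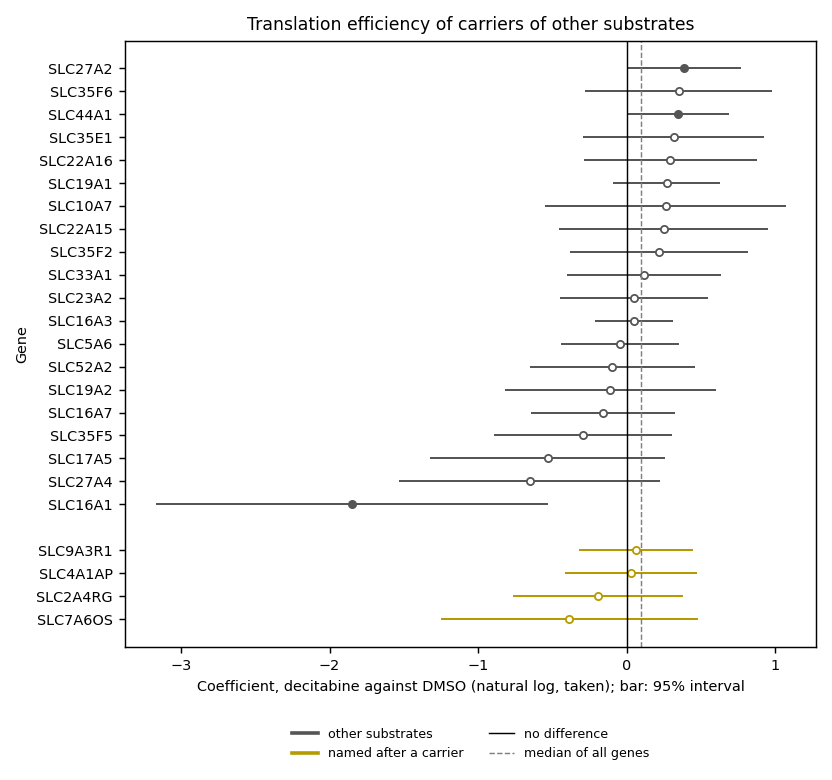
Coefficients (natural log, taken) of 20 carriers of other substrates and of 4 genes named after a carrier, with 95% intervals from the implied standard errors; filled points have an unadjusted p below 0.05. SLC16A1 stands apart at -1.85 with the widest interval, and SLC27A2 and SLC44A1 are filled at 0.39 and 0.35.

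The first bases of an mRNA bear on its translation: mRNAs of ribosomal proteins start with a C followed by a run of pyrimidines. RefSeq windows around annotated starts were found for 70 of the 88 genes, and 2 of these, or 2.86%, had a C and 4 further pyrimidines at a start, compared with 410 of 5285 measured genes, or 7.76%, and 30 of 45 ribosomal protein genes. The starts shown are those of members with an unadjusted p below 0.05 and 1 start among these windows, followed by the 2 members with the pyrimidine start. The starts of SLC2A5 and SLC41A3 lie inside the span of the gene and not at its end, so the windows may not hold every annotated start. The annotated start may differ from the one used in HL-60 cells and from that of the deposited transcript. Each line gives 15 bases before the start in lower case and the 15 bases from the start in capitals, 5′ to 3′ on the strand of the gene, from RefSeq, GRCh38.p14.
SLC2A5: tggctgttatttggcATGGCCAAAGTGCAC
SLC7A5: cgggcggggttcctgACGCAGCTGCGGGCG
SLC15A4: gcggcggggcgaggcAGCTGGCGGCGTCGC
SLC38A2: tcgcagggctgctccACAGCCGCGCGACGC
SLC27A2: cgggctcagccggccAGTCCTGCCCGGAAC
SLC44A1: caggagcagagcaggAGACGCGTAGCCGCC
SLC41A3: gcgtcctccgcccgcCTCTTTCCCGCCGCC
SLC4A2: ccgctgttgttattcCTTTTATGTGCTCCC

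These windows lie at chr1:9069621-9069650 (minus strand) for SLC2A5, chr16:87869493-87869522 (minus) for SLC7A5, chr12:128823944-128823973 (minus) for SLC15A4 and chr12:46372759-46372788 (minus) for SLC38A2. They lie at chr15:50182181-50182210 (plus) for SLC27A2, chr9:105244636-105244665 (plus) for SLC44A1, chr3:126084110-126084139 (minus) for SLC41A3 and chr7:151058185-151058214 (plus) for SLC4A2. The 6 starts of members with an unadjusted p below 0.05 all begin with A and hold 6 to 8 pyrimidines among the 15 bases shown. Those of SLC41A3 and SLC4A2 hold 13 and 12. The latter were picked for their pyrimidine start, which set their first base and part of these counts, so the groups are not compared. The coefficients of SLC41A3 and SLC4A2 were -0.55 and 0.07 in the authors' deposited table, and neither passed. RefSeq windows list 2 starts for SLC41A3 and 4 for SLC4A2, and the run stands at 1 of them in each gene, so the match describes a window and not the mRNA that was measured.

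Genes of other transporter families were set beside the solute carriers. Both lists were taken by symbol, so the first holds ABCE1, ABCF2 and ABCF3, which are soluble proteins and not transporters, and the second holds an accessory chain. Of 13 genes with ABC symbols none passed an adjusted p of 0.05, beside 0.808% of all genes, and their median was 0.07. Of 15 P-type ATPase genes 1 passed, ATP8B4, a phospholipid flippase, with, by the authors' deposited table, 0.64 ± 0.18 (adjusted p = 0.0398), and an adjusted p of 0.179 after subtraction of the median of all genes. The 15 P-type ATPase genes had a median of 0.14, above the 0.11 of the solute carriers. None of 22 mitochondrial carriers of the SLC25 family passed, and their median was 0.01. The difference between these medians and that of the solute carriers was not tested.

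**Figure D5:**
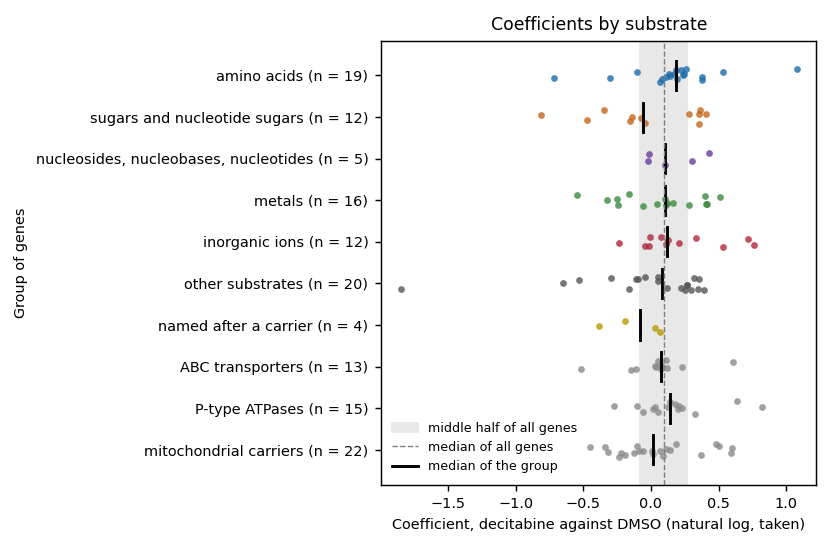
Coefficients (natural log, taken) of single genes by group, with the group's median as a black bar, the median of all genes as a dashed line and the interquartile range of all genes as a grey band. Each group spreads across the dashed line except the 4 genes named after a carrier, and the group medians lie between -0.08 and 0.19.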

How the data were processed

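The deposited table holds 1 transcript per gene for 6309 genes. Its values are a drug coefficient, which was taken as a natural log, its two-sided p-value, an adjusted p-value and a q-value, per the file headers. Bowtie2, UMI-tools 1.1.1, SAMtools 1.11 and hg38 are named, per the submitters' processing notes. The modelling program, any filter on low counts and how replicates were handled: not given in the sources used here. No counts were analysed, so no model of replicates could be fitted and depth is unknown.

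Members were found by symbol, and standard errors were computed as the coefficient over the z of its p-value, in Python 3.11.15 with SciPy 1.17.1 and pandas 2.3.3. The adjusted p-values equal a Benjamini-Hochberg adjustment over all genes. Centred p-values subtract the median of all genes and are adjusted in the same way. Steps were tested on simulated coefficients drawn with the implied standard errors, which checks the arithmetic and not the authors' model or its replicates. Symbols were matched to RefSeq, 86 directly and 2 through older symbols. Members, substrate classes and lists were chosen with earlier results of these data known, and the places of carriers in the cell were assigned after the values were seen. The 43 genes of the naming rule are any called member, up to 4 with the smallest p-values in each class, the highest and lowest of each class, and 21 listed genes where measured; other genes named were chosen after their values were seen, and the results of some genes are not reported here. Alternatives were thresholds, adjustments, centring, weights and the removal of imprecise genes.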

Additional observations from a re-analysis of the deposited data

How the results depend on the processing

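The count of solute carriers past the threshold was 0 at adjusted p-values of 0.05, 0.01 and 0.1, with the Benjamini-Yekutieli adjustment, with the deposited q-value, after both centrings, without the least precise 25% of genes (which removed 27 of the 88 members), and with a minimum change of 1 on the log2 scale. At 0.01, with Benjamini-Yekutieli and with the minimum change, the count could not exceed that at 0.05, so these add no support. It was 10 at an unadjusted p below 0.05, with 8 higher and 2 lower, and 5 when such p-values were taken after centring on the median, with 2 higher and 3 lower, an alternative chosen after seeing the data. The first of these changes the threshold alone, and the second changes the threshold and the centring together. None of the 43 genes of the naming rule passed under the alternatives run, the lowest adjusted p being 0.155. That value came from the run without the least precise 25% of genes. This run left out 12 of the 43, among them SLC16A1 and SLC38A7. Centring on the median and on the precision-weighted mean turned the sign of SLC16A3 (-0.0463 and -0.0409), SLC4A1AP (-0.0661 and -0.0608) and SLC9A3R1 (-0.0305 and -0.0251), whose coefficients lay between 0 and the value subtracted. The median of all members stayed between 0.11 and 0.12 with other weights, filters and members, and was 0.02 after centring. With precision weights, without the least precise genes and after centring, in that order, class values were 0.19, 0.19 and 0.09 for amino acids, -0.04, -0.14 and -0.15 for sugars, 0.05, 0.04 and 0.01 for nucleosides, 0.07, 0.11 and 0.01 for metals, 0.17, 0.09 and 0.02 for ions, and 0.10, 0.17 and -0.01 for other substrates. For the 4 genes named after a carrier, with a median of -0.08, they were -0.03, 0.03 and -0.18. No paired analysis was possible because the table gives no value per library, and no replicate could be left out for the same reason. Unknown depth and wide standard errors limit each statement that a gene did not pass.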

Other observations

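The 4 genes that are only named after a carrier all lay below the median of all genes in the authors' deposited table. SLC9A3R1, the scaffold protein NHERF1, had 0.06 ± 0.19, SLC4A1AP had 0.03 ± 0.22, SLC2A4RG, a transcription factor, had -0.19 ± 0.29, and SLC7A6OS had -0.39 ± 0.44, and none passed. SLC7A6OS lies on chromosome 16 from 68298034 to 68310946 and overlaps SLC7A6, which spans 68264526 to 68301819 (GRCh38.p14). The whole-gene spans of 11 members overlapped another measured gene, among them SLC5A3 with MRPS6 and SLC16A3 with CSNK1D. No source used here says whether reads were counted by strand, so the values of overlapping genes are uncertain.

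By place in the cell, 46 carriers of the plasma membrane had a median of 0.11 in the authors' deposited table, 17 of the endoplasmic reticulum or Golgi had 0.10 and 7 of lysosomes or endosomes had 0.21, with 12 not assigned. The ranges of these groups overlapped widely.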
